A study of Mus musculus with 6 samples.

Results

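The complement system and the coagulation cascade are sets of plasma proteins that the liver secretes in large part. The 47 genes described here were listed by name and were read in liver RNA through every probe set to which the array's annotation gives exactly 1 gene symbol. That rule found 43 of the 47, by 64 probe sets, of 18193 genes on the array. C3, C4b, Cfd and Cpb2 had no probe set with a single symbol and are not analysed here. All 43 passed the intensity filter and were among the 13312 genes tested. No measured value was used to choose the members, although results of these data were known when they were listed.

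The comparison is of AAV8-Nfkbiz with AAV8-luciferase livers, each with 3 arrays and 1 liver sample per array. All mice were C57BL/6, received an adeno-associated virus of serotype 8 by vein, carrying Nfkbiz in the one arm and luciferase in the other, and 4 weeks later were put on CDAHFD, a choline-deficient, high-fat diet that models nonalcoholic fatty liver disease, for 4 weeks. The product of Nfkbiz is IκBζ, an atypical nuclear IκB protein, and the study is about its part in fatty liver disease. Both arms carried a vector and both were on the diet, so the data hold no untreated or normally fed liver. The sources used here do not give the promoter of the vectors, the age and sex of the mice, the hour of sampling or whether animals were pooled. Livers were perfused before sampling. The labels do not say that samples came from separate animals. Each p-value thus sets a difference against a spread estimated from these samples, which may be technical.

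Complement is started by 3 routes: C1q on antibody or cell surfaces, mannose-binding lectins with their MASP proteases on sugars, and the alternative pathway of factor B, factor D and properdin. All converge on C3 and then on C5 and the membrane attack proteins. Coagulation runs through vitamin K dependent proteases to thrombin, which turns fibrinogen into fibrin, with antithrombin, tissue factor pathway inhibitor and protein C as brakes and plasmin to dissolve the clot. Hepatocytes make most of these proteins. C1q and properdin come mainly from macrophages, including Kupffer cells, while factor VIII and tissue factor pathway inhibitor come largely from endothelium.

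Promoters are shown for the 8 members whose difference had an unadjusted p below 0.05 in limma's test. None of the 8 passed that test after adjustment over all genes, and 12% of all genes had such an unadjusted p. The RefSeq table of GRCm38.p6 held a promoter for 37 of the 47 listed genes, and for 7 of these 8. Each sequence runs 5′ to 3′ on the strand of its gene over 300 bases, of which the last 50 follow the start site. C1qb lies at chr4:136886151-136886450 on the minus strand, and C1qc, the next protein-coding gene to it, at chr4:136892865-136893164 on the minus strand. Cfp, the properdin gene, lies at chrX:20931506-20931805 (minus strand), Klkb1 at chr8:45294786-45295085 (minus strand), Mbl1 at chr14:41151206-41151505 (plus strand) and Mbl2 at chr19:30232678-30232977 (plus strand). Tfpi had start sites with promoters at chr2:84476710-84477009 and chr2:84474125-84474424, both on the minus strand. Capitals mark matches to the motifs named after the sequences and, in Mbl1 and Mbl2, the longest run that both promoters share.
C1qb: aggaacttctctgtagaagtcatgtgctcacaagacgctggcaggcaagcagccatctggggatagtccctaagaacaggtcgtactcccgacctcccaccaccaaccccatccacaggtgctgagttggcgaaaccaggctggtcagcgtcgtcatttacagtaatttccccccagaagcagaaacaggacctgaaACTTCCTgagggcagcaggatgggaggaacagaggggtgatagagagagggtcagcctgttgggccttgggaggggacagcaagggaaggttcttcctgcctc
C1qc: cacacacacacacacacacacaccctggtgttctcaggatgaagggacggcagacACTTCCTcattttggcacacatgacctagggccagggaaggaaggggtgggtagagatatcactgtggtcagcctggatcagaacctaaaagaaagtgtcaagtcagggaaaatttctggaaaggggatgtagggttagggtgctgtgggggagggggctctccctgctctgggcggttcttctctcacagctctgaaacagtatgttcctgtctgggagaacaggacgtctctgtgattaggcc
Cfp: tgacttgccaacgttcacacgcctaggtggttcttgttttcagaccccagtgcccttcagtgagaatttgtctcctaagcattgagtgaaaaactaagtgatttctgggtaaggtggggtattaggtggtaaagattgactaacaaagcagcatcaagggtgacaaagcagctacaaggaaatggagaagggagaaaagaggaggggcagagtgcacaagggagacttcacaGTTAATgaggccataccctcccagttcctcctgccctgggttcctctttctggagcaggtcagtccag
Mbl1: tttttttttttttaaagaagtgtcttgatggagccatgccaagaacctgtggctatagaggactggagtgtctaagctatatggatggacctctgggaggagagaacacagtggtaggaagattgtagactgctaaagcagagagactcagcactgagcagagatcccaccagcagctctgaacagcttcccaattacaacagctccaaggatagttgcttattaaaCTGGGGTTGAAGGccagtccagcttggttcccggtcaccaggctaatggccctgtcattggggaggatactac
Mbl2: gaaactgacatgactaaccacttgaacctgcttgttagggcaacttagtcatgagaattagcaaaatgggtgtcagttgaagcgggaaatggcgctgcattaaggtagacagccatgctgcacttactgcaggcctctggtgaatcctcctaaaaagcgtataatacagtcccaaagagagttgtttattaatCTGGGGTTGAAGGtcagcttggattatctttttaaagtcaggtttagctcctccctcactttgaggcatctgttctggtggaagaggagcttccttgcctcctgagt
Klkb1: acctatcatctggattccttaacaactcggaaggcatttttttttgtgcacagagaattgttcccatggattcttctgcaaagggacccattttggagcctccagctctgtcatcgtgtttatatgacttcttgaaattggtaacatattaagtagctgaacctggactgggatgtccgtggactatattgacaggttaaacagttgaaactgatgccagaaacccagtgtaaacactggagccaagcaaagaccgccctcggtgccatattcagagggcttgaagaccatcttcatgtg
Tfpi, first start site: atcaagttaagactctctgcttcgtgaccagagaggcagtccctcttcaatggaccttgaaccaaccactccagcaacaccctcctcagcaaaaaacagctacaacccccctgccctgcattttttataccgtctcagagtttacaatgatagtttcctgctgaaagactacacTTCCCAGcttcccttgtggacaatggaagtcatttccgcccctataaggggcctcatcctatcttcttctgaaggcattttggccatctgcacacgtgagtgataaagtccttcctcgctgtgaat
Tfpi, second start site: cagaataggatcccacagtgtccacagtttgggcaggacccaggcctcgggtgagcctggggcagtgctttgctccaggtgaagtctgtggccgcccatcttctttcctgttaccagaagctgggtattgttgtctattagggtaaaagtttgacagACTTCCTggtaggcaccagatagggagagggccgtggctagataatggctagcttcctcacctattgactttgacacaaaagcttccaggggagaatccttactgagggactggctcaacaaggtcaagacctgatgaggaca

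The promoters were searched on both strands for 6 motifs chosen after the values were seen, and no matches to different motifs overlapped in the sequences shown. Both C1q promoters shown held the ETS core AGGAAGT, which the myeloid factor PU.1 binds. Its match began at position -53 from the start site in C1qb, -195 in C1qc and -93 at the second start of Tfpi, each on the opposite strand. It was present in 5 of 39 member promoters (12.8%) and in 9.35% of all 32851 promoters of the table. The half-site GTTAAT of the hepatocyte factor HNF1 was in 10 of 39 member promoters (25.6%, against 7.1% of all promoters), among them those of Fga, Fgb, F2, Hc, C8a, C8b, Vtn, C4bp and F13b, and also in Cfp. CTGGGAA, the core of the interleukin-6 response element, was in 7 (17.9%, against 11.1%), including Fgb and Fgg, and the C/EBP core TTGNNCAA was in 6 (15.4%, against 6.4%). Neither the NF-κB site GGANTTTCC, present in 1.25% of all promoters, nor the HNF4 site CAAAGTCCA, present in 0.475%, was found in the 39. The promoters of Mbl1 and Mbl2 shared the 13-base run CTGGGGTTGAAGG, which began at positions -23 and -57 and occurred in 3 promoters of the whole table. A match is a description of these letters and not of binding.

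Values are MAS5 intensities that the authors had scaled to a common level, with a mean of the middle 96% of 495 to 497 on every array and medians of 78.2 to 95.2. Each difference is the mean log2 value of the Nfkbiz livers less that of the luciferase livers, with limma's standard error (SE), and 95% intervals are limma's for single genes. Nfkbiz itself read 4424, 4073 and 2006 on the Nfkbiz arrays, against 221, 230 and 180 on the luciferase arrays, at its probe set 1448728_a_at. Its other probe sets had differences of 0.30 (1417483_at) and -0.89 (1457404_at) and did not pass limma's test (adjusted p = 0.603 and 0.594 over 27022 probe sets). On the second principal component (22.9% of the variance) the third luciferase array lay at 45.1, where the others lay between -21.1 and -3.11 and results are therefore also given without it. Hepatocyte markers identified the tissue, with albumin (Alb) at 43844 ± 4849 in Nfkbiz and 42878 ± 2568 in luciferase livers (SD, n = 3 each). The 8 markers together had a mean log2 level of 13.69 to 13.83 on the Nfkbiz arrays and 13.84 to 14.31 on the luciferase arrays. That mean takes in Ass1, whose probe set was dim and uneven. It read 115, 178 and 135 in Nfkbiz livers, against 584, 608 and 60.5 in luciferase livers (-0.99 ± 0.73). The 8 markers had a median difference of -0.09, with 3 of the 8 positive. Of them Tat, a tyrosine-degrading enzyme gene under hormonal control, fell (-1.17 ± 0.16, limma adjusted p = 0.0218), and the others did not pass.

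None of the 43 members passed the threshold of 0.05 on limma's p adjusted over all genes, where 30 of 13312 genes (0.225%) did, 0.0676% higher and 0.158% lower. At an unadjusted p below 0.05 there were 8 members (18.6%), against 12% of all genes. Of the 43 members, 7 were higher in the Nfkbiz livers at that p, namely C1qa, C1qb, C1qc, Cfp, Mbl1, Mbl2 and Tfpi, where 5.03% of all genes were. Of the 43, 1 was lower, Klkb1, where 7% of all genes were. After median centring of the arrays these counts were 6 and 0, and after quantile or loess normalization 7 and 2. Over probe sets, 0 of the 63 member probe sets above the filter passed, against 0.0703% of all 27022 (0.0185% higher and 0.0518% lower). At an unadjusted p below 0.05, 11 of the 63 member probe sets were higher and 2 of the 63 lower. Of all probe sets 4.14% were higher and 6.47% lower, or 10.6% in either direction. The groups did not overlap, with the Nfkbiz arrays higher, for 8 of 43 members (18.6%), against 8% of all genes. They did not overlap with the Nfkbiz arrays lower for 1 of 43 members, against 10% of all genes. Positive differences were found for 32 of 43 members (74.4%), against 47.8% of all genes, and the members' median was 0.06, against -0.02 over all genes. The positive count was 20 after quantile normalization, 21 after loess and 19 without the first luciferase array. The sign of the members' median was not fixed, since quantile normalization gave -0.0027, loess -0.005 and leaving out the first luciferase array -0.016.

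**Figure D1:**
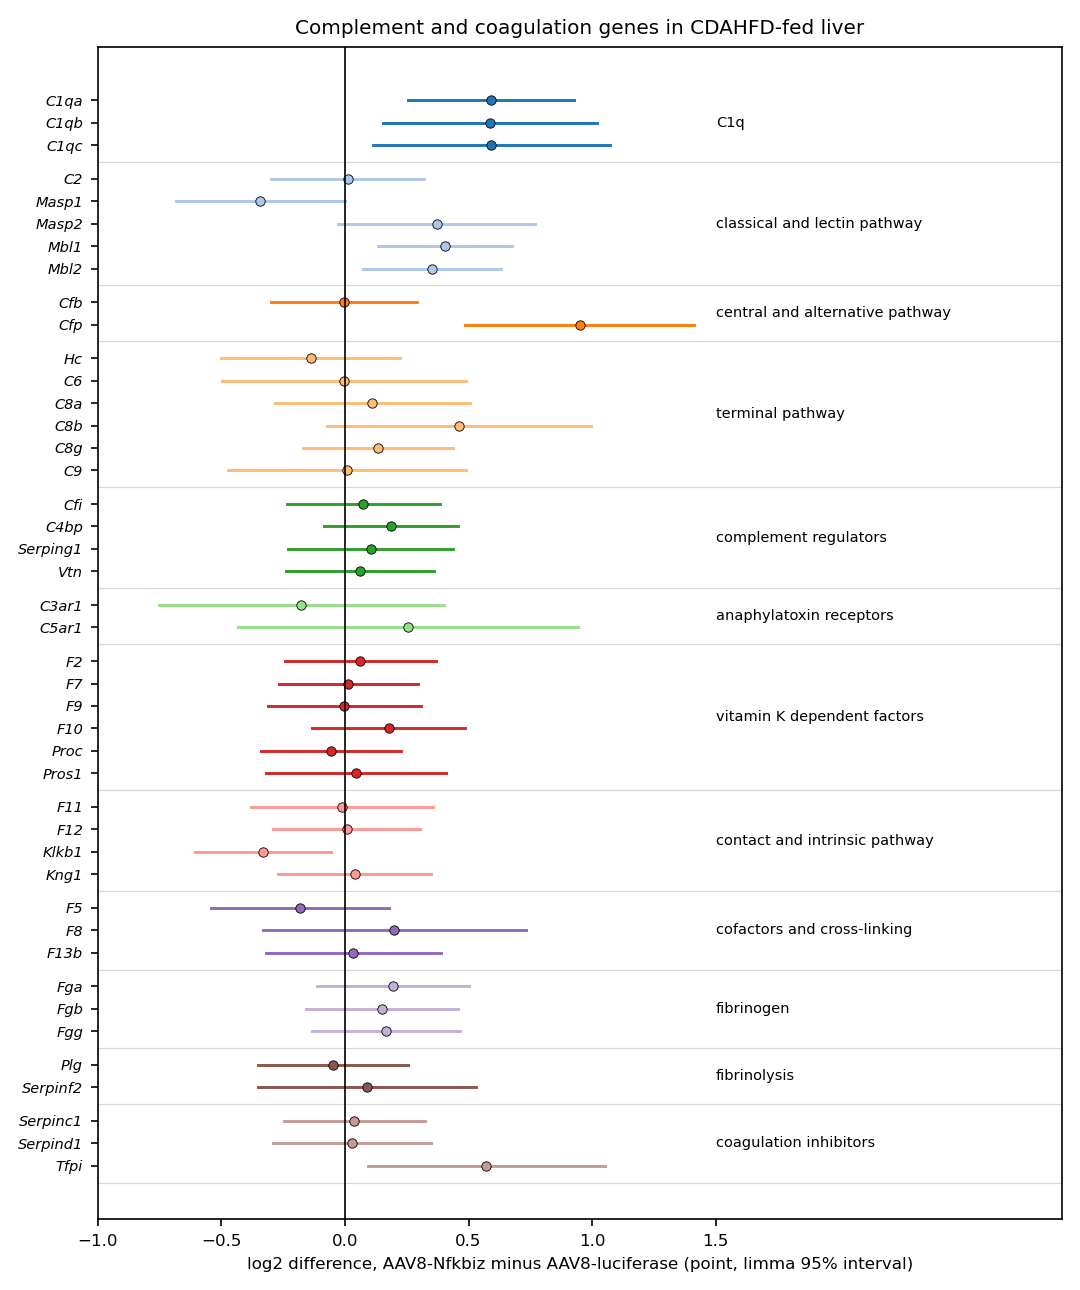
Log2 difference of each of the 43 measured members, AAV8-Nfkbiz minus AAV8-luciferase (horizontal axis, point with limma 95% interval, 3 arrays per group), grouped by role down the page. C1q, Cfp, Mbl1, Mbl2 and Tfpi have intervals above 0 and Klkb1 below 0, while no member passed the adjusted threshold.

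The C1q chains, which together form the recognition molecule of the classical pathway, differed by nearly the same amount. C1qa read 6918, 7354 and 6214 on the Nfkbiz arrays, against 5028, 5034 and 3664 on the luciferase arrays, and the groups did not overlap. C1qb read 7135, 7243 and 6014 in Nfkbiz livers, against 5330, 5351 and 3212 in luciferase livers. C1qc read 6139, 6396 and 5599 in Nfkbiz livers, against 4361, 5401 and 2723 in luciferase livers. In all of them the third luciferase array was the lowest of the 6 arrays and the Nfkbiz arrays were the top ones. The log2 differences were 0.59 ± 0.15 for C1qa, 0.59 ± 0.20 for C1qb and 0.59 ± 0.22 for C1qc, or about 1.5-fold, with limma adjusted p-values of 0.183, 0.277 and 0.322. Without the third luciferase array they were 0.44, 0.34 and 0.31, with limma adjusted p-values of 0.189, 0.278 and 0.345. C1qa, C1qb and C1qc are neighbours on chromosome 4 with 0 protein-coding genes between them.

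C1qb was read by other probe sets too, on which the third luciferase array was not low. Probe set 1434366_x_at read 1654, 1571 and 1483 in Nfkbiz livers, against 1231, 1089 and 1343 in luciferase livers. On 1437726_x_at the values were 2513, 2728 and 2247 in Nfkbiz livers, against 2007, 1715 and 2224 in luciferase livers. The third luciferase array was the highest of its group on both, and the groups still did not overlap. Their differences, 0.37 ± 0.14 and 0.34 ± 0.14, became 0.44 and 0.42 without that array (limma adjusted p = 0.216 and 0.242 over probe sets).

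**Figure D2:**
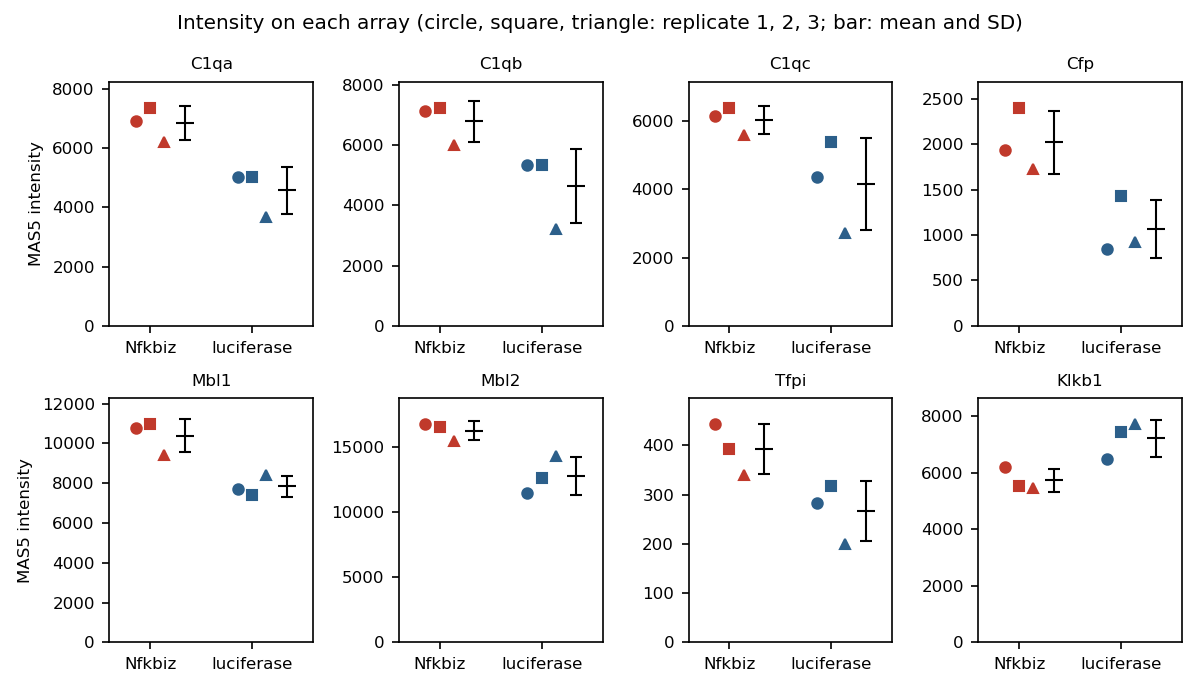
MAS5 intensity on each array (vertical axis from 0) for the 8 members with an unadjusted p below 0.05, Nfkbiz livers on the left in red and luciferase livers on the right in blue, with the mean and SD of 3 arrays as a bar. The groups do not overlap for any of them, and the third luciferase array (triangle) is the lowest of the 6 for C1qa, C1qb, C1qc and Tfpi.

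Among the alternative pathway genes, properdin had the largest difference of all members when each gene was read by its brightest probe set, while the means of factor B nearly coincided. With the mean of probe sets the properdin difference was 0.34, below the 0.92 of Tfpi. Cfp, the gene of properdin, which stabilises the C3 convertase, read 1937, 2400 and 1721 in Nfkbiz livers, against 842, 1430 and 922 in luciferase livers. All Nfkbiz arrays lay above all luciferase arrays. The means were 2019 ± 347 and 1065 ± 319 (SD, n = 3 each), a log2 difference of 0.95 ± 0.21 (limma adjusted p = 0.136), and 0.87 without the third luciferase array. A second, dim Cfp probe set, 1447537_at, ran from 15.3 to 151.6 among Nfkbiz arrays and from 11 to 116.7 among luciferase arrays, with a difference of -0.28 ± 1.05. Cfb, the protease of the alternative convertase, read 13797, 11612 and 11256 in Nfkbiz livers, against 11722, 13692 and 11322 in luciferase livers, and the groups overlapped. Its difference was -0.0037, with a 95% interval of -0.30 to 0.29.

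The 16 macrophage markers, which held no C1q gene or Cfp, were also mostly higher in the Nfkbiz livers. Of these, 8 had a positive difference at an unadjusted p below 0.05 and 0 a negative one, and none passed limma's adjusted threshold. Their mean log2 level ran from 10.46 to 10.74 on the Nfkbiz arrays and from 9.84 to 10.48 on the luciferase arrays, lowest on the third luciferase array. The lowest array differed between markers. Clec4f, Timd4, Vsig4, Marco, Cd5l, Folr2 and Cd163 were lowest on the first luciferase array. Adgre1, Cd68, Tyrobp, Trem2 and Cx3cr1 were lowest on the third, as were the C1q genes on their brightest probe sets. The remaining markers were lowest on other arrays. Every marker of the list was above the intensity filter. Clec4f, a lectin of resident Kupffer cells, read 4607, 6114 and 3652 in Nfkbiz livers, against 1454, 3309 and 2317 in luciferase livers (1.07 ± 0.28, limma adjusted p = 0.185). Csf1r, the growth factor receptor of the whole macrophage lineage, had a difference of -0.05 ± 0.12, and Trem2, Ccr2, Itgax, Gpnmb and Cx3cr1, markers of recruited macrophages, lay between -0.48 and 0.26. In bulk tissue, fewer cells of a type and less RNA per cell cannot be told apart, and the part of macrophage content in the C1q and Cfp values was not tested.

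The anaphylatoxin receptors, which bind C3a and C5a on myeloid cells, had wide intervals, and their difference from C1q was not tested. C3ar1 read 569, 420 and 459 in Nfkbiz livers, against 846, 441 and 424 in luciferase livers, and only the first luciferase array was above the rest. Its difference was -0.18 ± 0.26, and its other probe sets had differences of 0.11 and -0.26. C5ar1 read 229, 175 and 183 in Nfkbiz livers, against 184, 230 and 102 in luciferase livers, with overlapping groups (0.25 ± 0.31, 95% interval -0.43 to 0.94).

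**Figure D3:**
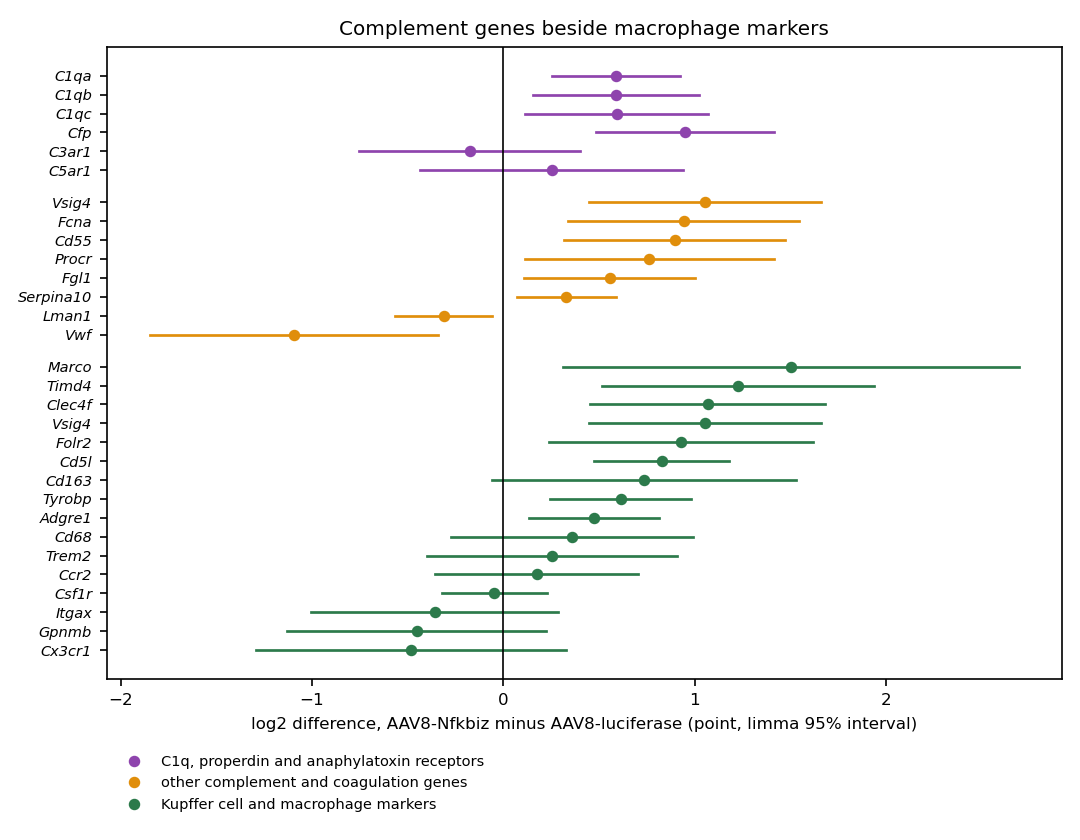
Log2 difference, AAV8-Nfkbiz minus AAV8-luciferase (horizontal axis, point with limma 95% interval, 3 arrays per group), of the C1q, properdin and anaphylatoxin receptor genes (purple, top), 8 other complement and coagulation genes (orange, middle) and 16 macrophage markers (green, bottom). C1qa, C1qb, C1qc and Cfp lie between 0.59 and 0.95, and the markers between -0.48 and 1.5.

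The lectin pathway genes differed in sign, with positive differences for both mannose-binding lectin genes and a negative one for Masp1, none past limma's adjusted threshold. Mbl1, which encodes the mannose-binding lectin A of mice, read 10786, 10966 and 9428 in Nfkbiz livers, against 7716, 7395 and 8422 in luciferase livers. Mbl2, the gene of mannose-binding lectin C, read 16737, 16556 and 15451 in Nfkbiz livers, against 11434, 12597 and 14272 in luciferase livers. The groups did not overlap for either gene. Their differences were 0.40 ± 0.12 and 0.35 ± 0.13, or 1.32-fold and 1.28-fold, with limma adjusted p-values of 0.234 and 0.311. Without the third luciferase array they were 0.46 and 0.44.

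Masp1, whose protease acts with mannose-binding lectin, had negative differences on all 4 probe sets above the filter with all arrays, although without the first luciferase array those of 1425985_s_at and 1438603_x_at were 0.05 and 0.05. On its brightest, 1419677_at, it read 2935, 2658 and 2505 in Nfkbiz livers, against 2756, 3658 and 3951 in luciferase livers, with an overlap (-0.34 ± 0.15, limma adjusted p = 0.415). Probe set 1438602_s_at read 1023, 1236 and 1176 in Nfkbiz livers, against 2024, 1547 and 1088 in luciferase livers (-0.40 ± 0.21). The third luciferase array was the highest of its group on the first and the lowest on the second, and without it the differences were -0.24 and -0.63. The mean of all Masp1 probe sets gave -0.079. That mean takes in 1455346_at, which lay below the filter and had a difference of 0.70 when no filter was used. For Masp2, the protease that cleaves C4 and C2, the probe sets differed in sign. Its 1420524_a_at read 4196, 4292 and 3145 in Nfkbiz livers, against 2887, 3713 and 2443 in luciferase livers (0.37 ± 0.18, and 0.23 without the third luciferase array), while 1451759_at had a difference of -0.13 ± 0.18. C2, the protease of the classical convertase, had a difference of 0.01 with a 95% interval of -0.30 to 0.32, and its 3 probe sets lay between -0.07 and 0.01.

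Among the terminal genes, whose products form the membrane attack complex, 0 of 6 had an unadjusted p below 0.05. C8b had the largest difference of them and read 7079, 7719 and 4318 in Nfkbiz livers, against 3551, 4262 and 5968 in luciferase livers (0.46 ± 0.24, limma adjusted p = 0.478). The third Nfkbiz array lay inside the luciferase range, and without it the difference was 0.72. Leaving out a luciferase array gave 0.29 for the first and 0.67 for the third. Its neighbour on chromosome 4, C8a, had a difference of 0.11 ± 0.18, and C8g, the third chain of C8, read 20335, 21633 and 18045 in Nfkbiz livers, against 16576, 17361 and 20882 in luciferase livers (0.13 ± 0.14). Hc, the mouse C5 gene, read 14292, 11495 and 11795 in Nfkbiz livers, against 11367, 13397 and 16972 in luciferase livers. Its difference of -0.14 ± 0.16 was 0.01 without the third luciferase array. C9, which forms the pore, read 26323, 23096 and 24099 in Nfkbiz livers, against 17946, 22562 and 35577 in luciferase livers. The spread of C9 was 1651 among Nfkbiz livers and 9143 among luciferase livers (SD, n = 3 each), the third luciferase array being far above all others, and the difference of 0.01 became 0.28 without it (limma adjusted p = 0.42). C6 had a difference of -0.0035 ± 0.22, and that array was the highest of the 6 for it as well.

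Complement regulators had small positive differences, 4 of 4, and 0 passed at an unadjusted p below 0.05. Of all members 74.4% were positive, and of all genes 47.8%. After quantile normalization the difference of Serping1 was -0.017. C4bp, which speeds the decay of the classical convertase, read 20959, 21937 and 19889 in Nfkbiz livers, against 16638, 19712 and 18915 in luciferase livers. The groups did not overlap, by a narrow margin (0.19 ± 0.12, limma adjusted p = 0.578), and the difference was 0.05 after quantile normalization and 0.12 without the first luciferase array. Serping1, the gene of the C1 inhibitor, read 26095, 22724 and 20873 in Nfkbiz livers, against 18005, 22740 and 24338 in luciferase livers, and the groups overlapped (0.10 ± 0.15). Cfi, the protease that cleaves C3b, and Vtn, the gene of vitronectin, which blocks the attack complex, had differences of 0.07 and 0.06.

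Among the coagulation genes, Tfpi and Klkb1 had the smallest p-values. Of the 21 measured coagulation members, 1 was higher and 1 lower at an unadjusted p below 0.05 (9.52%, against 12% of all genes), and their median difference was 0.04. Tfpi encodes the inhibitor of factor Xa and of the tissue factor complex. On its brightest probe set, 1438530_at, it read 443, 393 and 340 in Nfkbiz livers, against 284, 318 and 200 in luciferase livers (0.57 ± 0.22, limma adjusted p = 0.332). Probe set 1451790_a_at read 339, 368 and 255 in Nfkbiz livers, against 101, 140 and 87.4 in luciferase livers. That was a 2.95-fold difference in intensity (1.56 ± 0.26), and its limma adjusted p of 0.0761 over 27022 probe sets was the smallest of the 63 member probe sets above the filter. On 1451791_at, Tfpi read 380, 351 and 323 in Nfkbiz livers, against 298, 208 and 247 in luciferase livers (0.50 ± 0.20), and on 1452432_at 222, 227 and 198 in Nfkbiz livers, against 161, 172 and 38.7 in luciferase livers (1.07 ± 0.50).

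All 4 Tfpi probe sets thus read higher on every Nfkbiz array than on any luciferase array, a pattern that 7.03% of all probe sets above the filter showed, where 9.69% had every Nfkbiz array lower. Without the third luciferase array the differences were 0.38, 1.41, 0.49 and 0.37 in the same order of probe sets. That array had been the lowest on 3 of the 4, all but 1451791_at. Probe sets of one gene share its RNA and are not replicates, and which transcript each one reads is not given in the sources used here. Endothelial markers, which belong to a main cell type making this inhibitor, had 1 of 7 with a positive difference at an unadjusted p below 0.05, Clec4g, and 0 with a negative one. Their mean log2 level was 9.64 to 9.82 on Nfkbiz arrays and 8.68 to 9.98 on luciferase arrays, and the third luciferase array was the low one. Their part in the Tfpi values was not tested. F8, the endothelial factor VIII gene, read 523, 419 and 420 in Nfkbiz livers, against 372, 565 and 290 in luciferase livers (0.20 ± 0.24, and -0.02 without the third luciferase array).

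**Figure D4:**
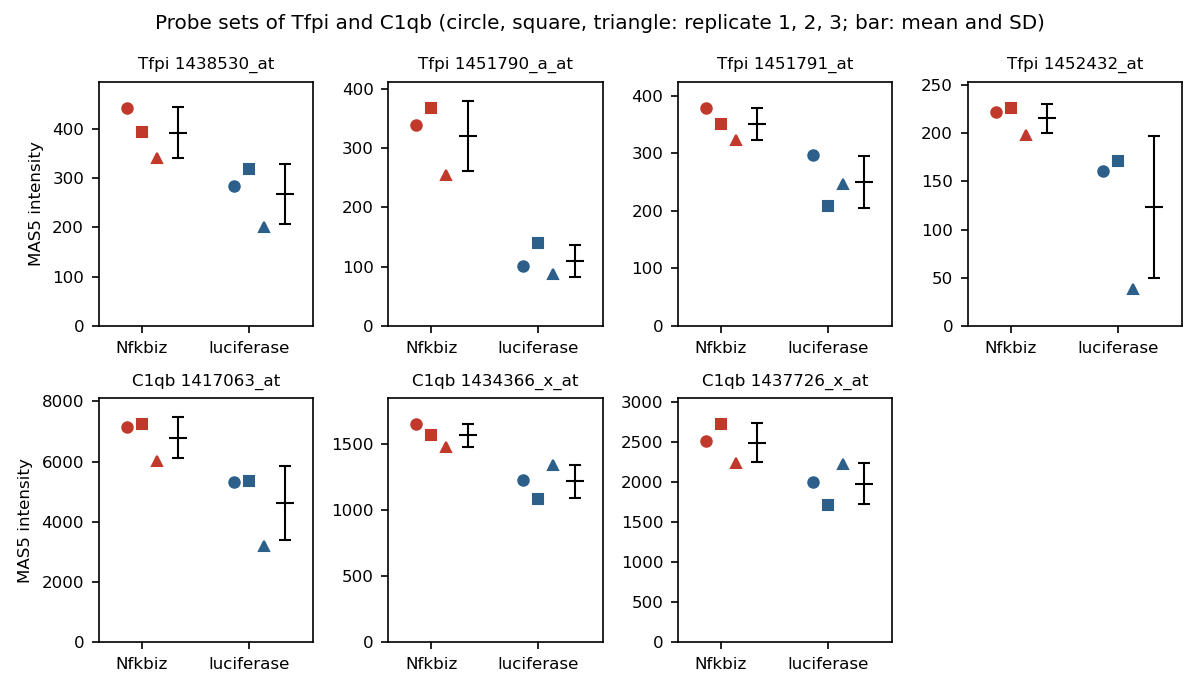
MAS5 intensity on each array (vertical axis from 0) for the 4 probe sets of Tfpi (top) and the 3 of C1qb (bottom), Nfkbiz livers on the left in red and luciferase livers on the right in blue, with the mean and SD of 3 arrays as a bar. The groups do not overlap on any of the 7 probe sets, and 1451790_a_at shows the widest gap, 255 to 368 against 87.4 to 140.

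With each gene read by its brightest probe set, Klkb1, of the contact system, was the one member lower in all Nfkbiz livers. Klkb1 encodes plasma prekallikrein, which activates factor XII and releases bradykinin from kininogen. It read 6202, 5542 and 5455 in Nfkbiz livers, against 6496, 7448 and 7725 in luciferase livers, a difference of -0.33 ± 0.12 or 0.795-fold (limma adjusted p = 0.329). Without the third luciferase array it was -0.28. Its direct neighbour on chromosome 8, F11, had a difference of -0.01 ± 0.17, F12 one of 0.01 ± 0.13 and Kng1, the kininogen gene, one of 0.04 ± 0.14.

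The fibrinogen chains, encoded side by side on chromosome 3, kept together. Fga read 33806, 32869 and 27517 in Nfkbiz livers, against 24122, 29117 and 29123 in luciferase livers. Fgb read 41867, 39622 and 33552 in Nfkbiz livers, against 31459, 38312 and 33858 in luciferase livers, and Fgg read 34947, 35998 and 29512 in Nfkbiz livers, against 26806, 32361 and 30251 in luciferase livers. For each chain the first and second Nfkbiz arrays were the top ones and the first luciferase array the lowest, and the groups overlapped through the third Nfkbiz array. The differences were 0.19 ± 0.14, 0.15 ± 0.14 and 0.17 ± 0.13, with limma adjusted p-values of 0.612, 0.713 and 0.665. After loess normalization they were 0.08, 0.02 and 0.05.

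The vitamin K dependent factors differed little in mean. F2, the prothrombin gene, read 33511, 34527 and 28100 in Nfkbiz livers, against 27399, 33863 and 30785 in luciferase livers, a difference of 0.06 with a 95% interval of -0.24 to 0.37. F10, the gene of factor X, which forms the prothrombinase with factor V, read 13929, 14120 and 10842 in Nfkbiz livers, against 10655, 12369 and 11214 in luciferase livers (0.18 ± 0.14, limma adjusted p = 0.655). F10's neighbour F7, the protease that tissue factor binds, had a difference of 0.01, F9 one of -0.0018, and the protein C and protein S genes Proc and Pros1 had -0.06 and 0.05. F5, the cofactor gene of the prothrombinase, read 11930, 10501 and 11078 in Nfkbiz livers, against 10673, 11655 and 16263 in luciferase livers (-0.18 ± 0.16). On its other probe set, 1449269_at, it read 8516, 6319 and 7826 in Nfkbiz livers, against 8772, 9843 and 10988 in luciferase livers, and there the groups did not overlap (-0.39 ± 0.15, limma adjusted p = 0.4 over probe sets). Without the third luciferase array these were 0.00011 and -0.31. F13b, the carrier subunit gene of factor XIII, had a difference of 0.03 ± 0.16.

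The antithrombin, plasminogen, heparin cofactor II and α2-antiplasmin genes had overlapping groups. Serpinc1, the antithrombin gene, read 36438, 37360 and 31917 in Nfkbiz livers, against 31232, 35936 and 35787 in luciferase livers. Plg, the plasminogen gene, read 34173, 33990 and 28096 in Nfkbiz livers, against 29452, 35149 and 34864 in luciferase livers. Their differences were 0.04 (95% interval -0.25 to 0.32) and -0.05 (-0.35 to 0.26). Serpind1, the gene of heparin cofactor II, and Serpinf2, that of the plasmin inhibitor α2-antiplasmin, had 0.03 ± 0.14 and 0.09 ± 0.20. Over the 17 members outside the rule for named genes, C3ar1 and C5ar1 included, differences ran from -0.18 to 0.25 and the smallest limma adjusted p was 0.789.

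For 29 of the 43 members the 95% interval lay within 1.5-fold in either direction. The 14 with wider or shifted intervals were C1qa, C1qb, C1qc, Cfp, C3ar1, C5ar1, F8 and Tfpi and, of the 35 other members, C8b, Klkb1, Masp1, Masp2, Mbl1 and Mbl2. Half-widths of these intervals ran from 0.269 to 0.688 on the log2 scale.

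The members mostly made by hepatocytes had their lowest values mostly on the same arrays, while their highest values were split between arrays. How closely single genes varied together was not tested. Of the 35 members other than C1q, Cfp, C3ar1, C5ar1, Tfpi and F8, a division made after their values were seen, 22 had their lowest value on the first luciferase array and 9 on the third Nfkbiz array. The highest value fell on the second Nfkbiz array for 14, on the first for 9 and on the third luciferase array for 9. Their median deviation from each gene's 6-array mean was 0.11, 0.12 and -0.12 on the Nfkbiz arrays, against -0.20, 0.04 and 0.06 on the luciferase arrays. The 75 genes outside the list that were at least as bright as the dimmest of the fibrinogen chains, F2, Vtn, Plg, Serpinc1 and Kng1 deviated by 0.07, 0.13 and -0.09 on the Nfkbiz arrays, against -0.17, 0.06 and 0.03 on the luciferase arrays. All 13312 genes together deviated by -0.04 to 0.06. The array pattern of these abundant plasma protein genes was thus also present in other bright genes. Those included further plasma protein genes, such as Alb, Apoa1, Clu and Pzp. The part of this pattern in the members' differences was not tested. The median over C1qa, C1qb, C1qc and Cfp was 0.34, 0.40 and 0.18 on the Nfkbiz arrays, against -0.16, -0.03 and -0.71 on the luciferase arrays. The C1q genes, on their brightest probe sets, had their lowest value on the third luciferase array. Cfp was low there too, at 922, and lowest on the first luciferase array, at 842.

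**Figure D5:**
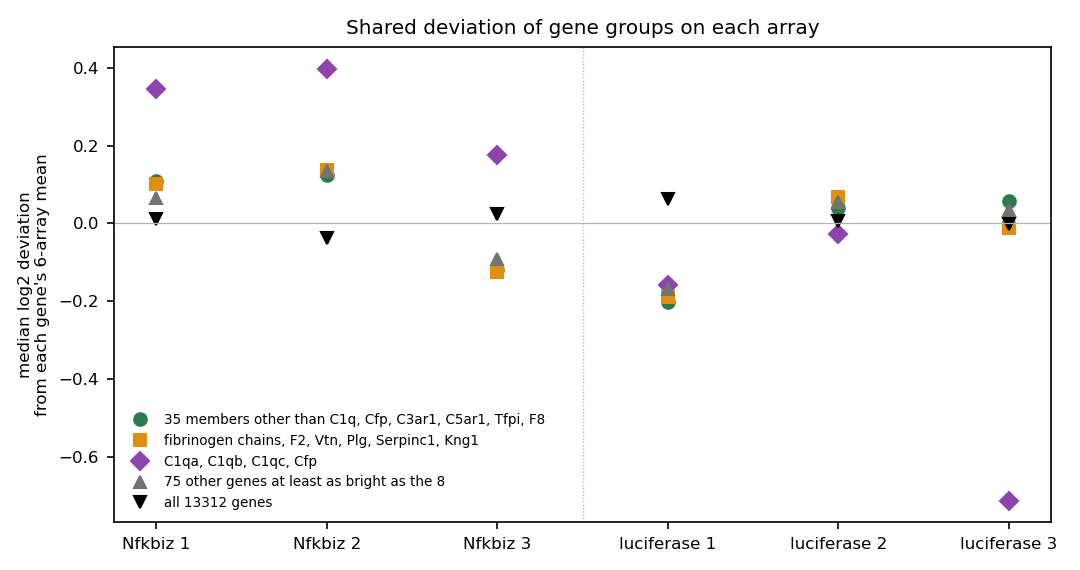
Median log2 deviation from each gene's 6-array mean (vertical axis) on each array (horizontal axis, Nfkbiz arrays left of the dotted line and luciferase arrays right of it) for groups of members, for 75 other bright genes and for all genes. The fibrinogen group and the 35 members lie close to the 75 bright genes on every array, while the median of the C1q genes and Cfp lies above them on the Nfkbiz arrays and at -0.71 on the third luciferase array.

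A wider list of 60 other complement and coagulation genes, of which 47 were tested, gave a like count. None passed limma's adjusted threshold, and at an unadjusted p below 0.05 there were 6 higher and 2 lower (17%, against 12% of all genes), with a median of 0.06. Vsig4, the complement receptor of Kupffer cells, had the largest positive difference and read 4957, 6734 and 3894 in Nfkbiz livers, against 1848, 3826 and 2060 in luciferase livers (1.05 ± 0.27, limma adjusted p = 0.185). Fcna, a ficolin of macrophages that starts the lectin pathway, read 2835, 3491 and 1704 in Nfkbiz livers, against 1056, 1863 and 1207 in luciferase livers (0.94 ± 0.27). Both were highest on the second Nfkbiz array and lowest on the first luciferase array. The mean of the macrophage markers was highest on the first Nfkbiz array and lowest on the third luciferase array. Vsig4 is itself in that marker list, and whether these genes vary with the markers was not tested. Cd55, which speeds the decay of convertases on cell surfaces, read 468, 666 and 379 in Nfkbiz livers, against 283, 335 and 193 in luciferase livers (0.90 ± 0.26, limma adjusted p = 0.219), and its other probe sets had differences of 0.82 and 1.17.

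On the coagulation side of that list, Procr, the endothelial receptor of protein C, read 405, 239 and 289 in Nfkbiz livers, against 158, 266 and 136 in luciferase livers (0.76 ± 0.29). Fgl1, a fibrinogen-like hepatokine, had a difference of 0.56 ± 0.20 and Serpina10, the protein Z dependent inhibitor of factor Xa, one of 0.33 ± 0.12. Vwf, the gene of von Willebrand factor from endothelium and platelets, was dim and read 73.9, 46.9 and 82.2 in Nfkbiz livers, against 128, 156 and 139 in luciferase livers, with no overlap (-1.10 ± 0.34, limma adjusted p = 0.247). Lman1, which with Mcfd2 carries factors V and VIII out of the endoplasmic reticulum, read 5231, 5935 and 5797 in Nfkbiz livers, against 6859, 7140 and 7030 in luciferase livers (-0.31 ± 0.11, limma adjusted p = 0.323). Mcfd2 had a difference of 0.22 ± 0.14, and the other 4 probe sets of Lman1 lay between -1.10 and 0.16.

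Markers of the remaining cell types were few and mostly dim. Gzma, a granzyme of T and NK cells, rose (1.77, limma adjusted p = 0.0427), and it was the 1 of 5 tested T and NK cell markers to pass. At an unadjusted p below 0.05, 2 of the 5 were higher, Gzma and Nkg7 (0.73), and 0 lower. The others differed in sign, with 0.39 for Cd3g, -0.09 for Cd8a and -0.67 for Cd3e. None passed among 6 stellate cell, 3 neutrophil, 3 B cell and 3 platelet markers, of which 0, 2, 1 and 0 were higher and 2, 0, 0 and 0 lower at an unadjusted p below 0.05. The platelet markers, whose cells also store clotting proteins, had a mean log2 level of 8.06 to 8.37 on Nfkbiz arrays and 8.01 to 8.20 on luciferase arrays. No adipocyte marker was above the filter.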

How the data were processed

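Liver RNA of 3 AAV8-Nfkbiz and 3 AAV8-luciferase samples was hybridised to Affymetrix arrays of 45037 probe sets. The authors deposited MAS5 intensities, per the submitters' processing notes, and their mean over the middle 96% of probe sets was alike on all arrays. Of the probe sets, 34945 had 1 symbol, 932 had several and 9160 were unnamed here. Values were taken to log2, probe sets in the lowest 40% by mean (below an intensity of 47.4) were left out, and each gene was read by its brightest probe set. The test was limma 3.58.1 in R 4.3.3 (lmFit, eBayes with an intensity trend) with Benjamini-Hochberg adjustment over all genes, and likewise over all probe sets. It was tested on simulated data. Plots were made with matplotlib 3.10.9 in Python 3.11.15. Members, gene lists and motifs were chosen with earlier results of these data known. Every member is accounted for, and array values are given for C1q, fibrinogen, up to 20 members with the smallest unadjusted p, and C3, Cfb, Hc, C9, F2, Plg, Serpinc1 and Serping1 where measured. Of other pathway genes, the 8 with the smallest unadjusted p are named. Array values of C3ar1 and C5ar1, and Mcfd2, the marker genes and the secondary probe sets of one sign, fall outside this rule, and their choice followed a look at the values. The number of arrays limits the precision. Alternatives covered normalization, pseudocount, filter, probe set choice, trend, array weights, the replicate block and leaving out each array. Same-numbered samples did not deviate together (correlations of -0.0624, 0.0697 and -0.0324 for numbers 1, 2 and 3), so the numbers were not taken to pair the samples.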

Additional observations from a re-analysis of the deposited data

How the results depend on the processing

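Under all 17 alternatives 0 of the members tested passed limma's adjusted threshold, and the smallest member adjusted p was 0.0619, for Cfp with the replicate number as a block. Members at an unadjusted p below 0.05 and higher numbered 5 to 9 when 1 array was left out, against 7 with all arrays. Those lower, 1 with all arrays, numbered 2 after quantile normalization, cyclic loess, a pseudocount of 32, no filter, the most variable probe set or array weights, 0 after median centring or without an intensity trend, and 0 to 2 when 1 array was left out. With the replicate block they were 8 and 1, and of the other complement and coagulation genes 1 passed, Vsig4 (adjusted p = 0.0492), where 0 did without it, although same-numbered samples did not deviate together. Of 441 values of named members under an alternative, 418 kept their sign and 23 did not, and none changed sides of the threshold. Cfp was -0.28 with its most variable probe set, which is the dim one, and Cfb was 0.030 after median centring. Quantile normalization gave -0.12 for C9, -0.024 for F2, -0.033 for Serpinc1 and -0.017 for Serping1, and loess gave -0.098 for C9, -0.056 for F2 and -0.086 for Serpinc1. Leaving out 1 array gave ranges of -0.30 to 0.00011 for F5, -0.27 to 0.015 for Hc, -0.021 to 0.46 for F8, -0.094 to 0.079 for Cfb, -0.21 to 0.28 for C9, -0.017 to 0.15 for F2, -0.13 to 0.044 for Plg, -0.029 to 0.11 for Serpinc1 and -0.024 to 0.19 for Serping1. The cause of these sign changes was not tested. Over all genes, 30 passed with all arrays, 62 with array weights, 13 with the mean of probe sets, 10 with the most variable one, 8 to 19 when 1 array was left out, and 0 without an intensity trend, where 10.1% had an unadjusted p below 0.05. The members' median, 0.06, was 0.12 without the third luciferase array.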
